A study of Mus musculus with 2 samples.

Results

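Mir140 and Mir455 are the miRNA genes best known from cartilage, and their reads were followed here in the neural tube of the mouse embryo, the tissue that gives rise to the brain and spinal cord. They were found by matching the Ensembl identifiers of the count tables to the GENCODE mouse annotation, which gave 2 genes of the 1973 in the tables. Both genes were picked with earlier results of these data in view, so their levels and their differences between libraries are described without a test. The study sequenced small RNAs of total RNA from B6NCrl embryos at embryonic day 14.5, with no second tissue, stage or treatment. Its 2 libraries form 1 group. Replicate 1 came from pup 1 of dam 1 and replicate 2 from pup 1 of dam 2, and both were collected on the same day. Per the labels each sample was a single neural tube, yet the sex is given as pooled, and the labels do not settle this. The labels list no genetic change or agent, and 1 library stands for each dam.

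A miRNA gene is transcribed as part of a longer RNA, from which a hairpin is cut and then trimmed to a short mature strand. That strand guides the Argonaute proteins to messenger RNAs, mainly through its seed, the stretch from base 2 to base 8. The gene Mir140 is strongly expressed in chondrocytes, where the transcription factor SOX9 promotes its expression, and mice without it have shortened skeletal elements and early loss of joint cartilage. Mir455 is likewise known from developing cartilage and from chondrocytes, and has also been studied in brown fat. Neither gene is regarded as a marker of neurons or glia.

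The mature strands are shown to compare their seeds, since miRNAs are grouped into families by seed. They are RefSeq sequences on GRCm38.p6, written 5′ to 3′, and capitals mark the seed in the mature strands and the miR-140-3p strand in the hairpin. Both genes matched the RefSeq table, which held 3 mature strands and 1 hairpin for them.
mmu-miR-140-3p: uACCACAGgguagaaccacgg
mmu-miR-455-5p: uAUGUGCCuuuggacuacaucg
mmu-miR-455-3p: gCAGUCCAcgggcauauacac
Mir140 hairpin: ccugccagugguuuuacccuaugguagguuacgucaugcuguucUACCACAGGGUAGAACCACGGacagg

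The 3 mature strands shown had 3 distinct seeds. The other strand of Mir140, miR-140-5p, was not compared. Among the 1738 mature strands in the table, the seed ACCACAG of miR-140-3p was shared by miR-497b alone, and the seed AUGUGCC of miR-455-5p by miR-5129-3p alone. The seed CAGUCCA of miR-455-3p occurred in no other entry. The strands with a shared seed are shown to compare the bases beyond it.
mmu-miR-497b: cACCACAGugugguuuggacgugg
mmu-miR-5129-3p: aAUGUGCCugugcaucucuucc
Their genes were almost silent in these libraries, where 1295 of all 1973 genes were at 0 in both. Mir497b had 1 count in replicate 1 and 0 in replicate 2, and Mir5129 had 0 counts in replicate 1 and 3 in replicate 2. Where a gene has 0 counts, its level may still reach 0.946 CPM in replicate 1 or 0.817 CPM in replicate 2 by counting error. CPM is the number of sense-strand reads of a gene per 1000000 such reads on all miRNA genes. Seed included, the longest run that a mature strand shared with a miRNA sequence of any other gene, on either strand, was 9 bases for miR-140-3p, 11 bases for miR-455-5p and 10 bases for miR-455-3p, among 2741 entries searched. Reads that fitted several positions of the genome were counted for no gene, and made up 32.4% of reads in replicate 1 and 33.3% in replicate 2.

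Mir140 (ENSMUSG00000065439.1) lies on the plus strand of GRCm38, the assembly also called mm10, at chr8:107551244-107551313, and is 70 bases long. Its host is Wwp2, which encodes a ubiquitin ligase and is also transcribed in cartilage. In the longest protein-coding transcript of Wwp2, which has 24 exons, it sits in intron 16, 1108 bases after the exon before it and 963 bases ahead of the next. The same intron holds it in 3 of the 11 annotated Wwp2 transcripts, while in 1 transcript of a single exon, of the class retained intron, it falls within that exon. The remaining 7 transcripts do not cover it. The miR-140-3p strand takes bases 45 to 65 of the gene.

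Mir455 (ENSMUSG00000070102.1) lies on the plus strand at chr4:63256851-63256932 and is 82 bases long. Its host Col27a1 encodes a fibrillar collagen of cartilage. It sits in intron 10 of the protein-coding transcript, which has 61 exons. That intron is 2318 bases long, and Mir455 lies 127 bases ahead of the next exon. In 4 of the 7 Col27a1 transcripts it is intronic, and the other 3 do not cover it. The strands miR-455-5p and miR-455-3p take bases 17 to 38 and bases 54 to 74 of the gene.

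Each was the only gene of the count tables inside its host. The nearest other gene with a count on the same chromosome was Mir7075, 455138 bases from Mir140 with 6 counts in replicate 1 and 5 in replicate 2. For Mir455 it was Mir3095, 4815753 bases away with 1 count in replicate 1 and 3 in replicate 2. Both members were thus far from other counted miRNA genes, unlike genes of a miRNA cluster. Host messenger RNA was not measured in these small-RNA libraries.

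**Figure D1:**
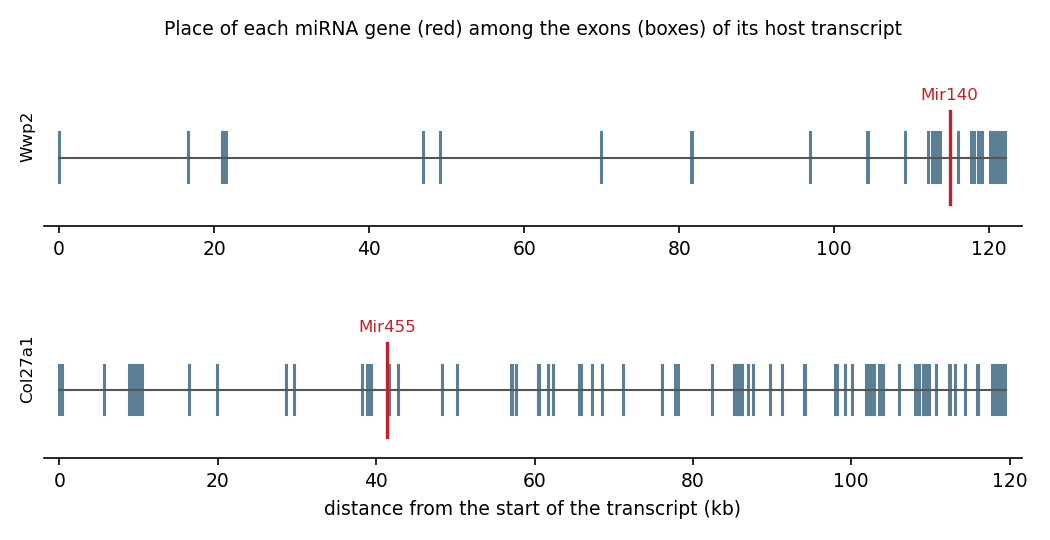
Place of Mir140 and Mir455 (red lines) among the exons (boxes, short ones drawn wider than scale) of the longest protein-coding transcripts of Wwp2 (above) and Col27a1 (below). The horizontal axes give distance from the start of the transcript in kb; Mir140 lies in intron 16, late in Wwp2, and Mir455 in intron 10 of Col27a1, 127 bases from the next exon.

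Depth was similar in both libraries. The sense column held 3172235 counts in replicate 1 and 3671915 in replicate 2, which was 53.4% of all reads in the table of replicate 1 and 51.9% in that of replicate 2. A minimum of 10 counts was met in both libraries by 329 of the 1973 genes, both members among them, and in 1 library or more by 360. As a check of the labelled tissue, 10 of 13 measured neural marker genes reached 10 counts in both libraries, none was at 0 in both, and together they held 16419 CPM in replicate 1 and 14642 CPM in replicate 2. The copies of the neuronal gene Mir124a were low, at 4 to 21 counts in replicate 1 and 5 to 23 in replicate 2, and reads that fitted several copies were not counted. Markers of other tissues were present too. Their sums are given beside the results they touch, and in a bulk sample fewer cells of a type cannot be told apart from less RNA per cell.

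Mir140 was an abundant miRNA gene of this tissue. It had 7312 counts in replicate 1 and 9790 in replicate 2. That is 2305 CPM in replicate 1, with an exact 95% interval of 2253 to 2358, and 2666 CPM in replicate 2, with an interval of 2614 to 2719. The intervals did not overlap, although replicate 2 was only 1.16-fold higher in CPM, and the mean was 2486 ± 255 CPM (SD, n = 2), or 0.249% of all miRNA counts. Mir140 ranked 49th in replicate 1, 53rd in replicate 2 and 52nd by mean CPM. The other-strand column held 0 reads for it in each library.

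Mir455 was far lower and less even. It had 384 counts in replicate 1 and 957 in replicate 2. This came to 121 CPM in replicate 1, with an exact 95% interval of 109 to 134, and to 261 CPM in replicate 2, with an interval of 244 to 278. The libraries lay well apart, with intervals that did not overlap, around a mean of 191 ± 98.7 CPM (SD, n = 2) or 0.0191% of miRNA counts. Mir455 ranked 173rd in replicate 1, 148th in replicate 2 and 156th by mean CPM. It too had 0 reads on the other strand in each library. The SD was 51.7% of the mean for Mir455 and 10.3% for Mir140. These intervals and floors cover counting error only, since no molecular identifiers are stated and PCR copies are not separate molecules.

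**Figure D2:**
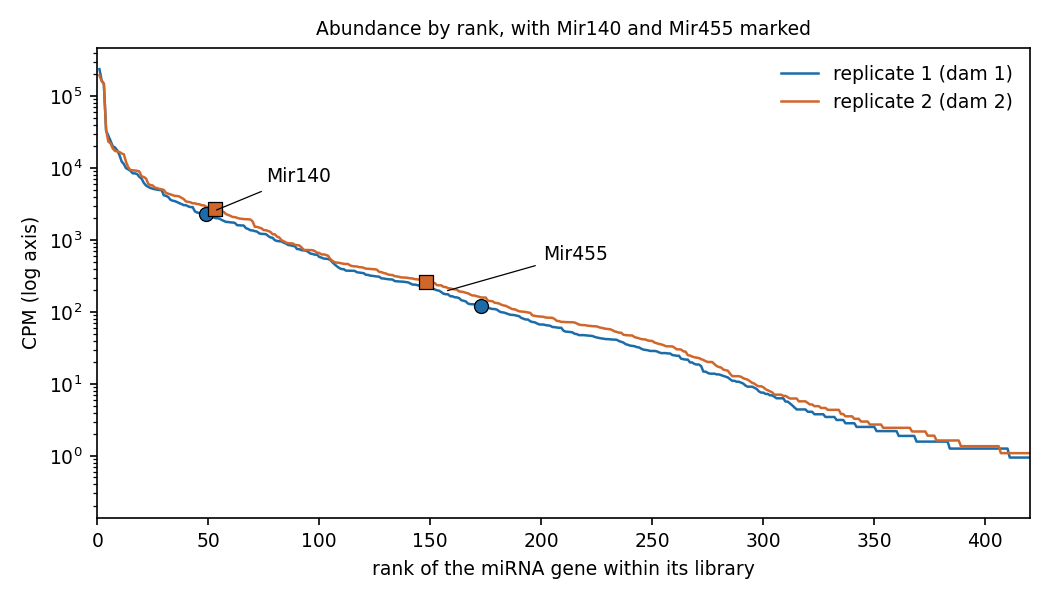
Level of miRNA genes (CPM, log axis) against their rank within each library (replicate 1 blue, replicate 2 orange), with Mir140 and Mir455 as filled points. Mir140 sits at nearly the same rank in both libraries, 49 in replicate 1 and 53 in replicate 2, whereas Mir455 is at rank 173 in replicate 1 and 148 in replicate 2.

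In the order of mean levels, Mir140 stood between Mir324, at 2496 ± 204 CPM, and Mir151, at 2475 ± 376 CPM. Mir455 stood between Mir421, at 191 ± 21.4 CPM, and Mir496a, at 187 ± 66.4 CPM. None of these neighbours was separated from the member beside it by more than the SD of that member, so the exact place of each in the order is not fixed by these data. Mir140 had more counts than 11 of the 13 measured neural markers in both libraries, among them Mir153, a neuronal miRNA gene at 961 CPM in replicate 1 and 961 CPM in replicate 2. Mir137, which acts in neural progenitors and neurons, was higher than Mir140 with 9594 CPM in replicate 1 and 9321 CPM in replicate 2. Mir219a-2, an oligodendrocyte gene, was about level with Mir140, at 2375 CPM in replicate 1 and 2089 CPM in replicate 2. Mir455 had more counts than 6 of the 13 in both libraries. Many of the 13 are copies that share sequence, and reads that fitted several copies were counted for no gene. These are thus orders of counts per gene, not of mature miRNAs.

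The genes most like each member were those with the smallest Euclidean distance in log2(CPM + 1) over the 2 libraries. For Mir140 they were Mir324, Mir151, Mir298, Mir23a and Mir92b, at distances of 0.03 to 0.15 on that log2 scale. For Mir455 they were Mir106a, Mir496a, Mir210, Mir148a and Mir20b, at distances of 0.16 to 0.39. All 5 genes near Mir455 had, like it, a lower CPM in replicate 1, a direction fixed by choosing them for nearness in both libraries. Mir106a had 127 CPM in replicate 1 and 235 CPM in replicate 2, and Mir148a, itself a cartilage partner below, had 110 CPM in replicate 1 and 214 CPM in replicate 2. With 2 libraries this likeness is one of level and of a single difference, and carries no test.

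The members differed in how they compared between the libraries. With libraries scaled by TMM, which sets the typical gene near no difference, the log2 ratio of replicate 1 over replicate 2 was 0.00 for Mir140, with an exact 95% interval of -0.04 to 0.05. For Mir455 it was -0.89, with an interval of -1.07 to -0.72, so Mir455 was 1.86-fold higher in replicate 2. Scaling by total counts moved the median of all genes by -0.21, and gave -0.21 for Mir140 and -1.11 for Mir455. The direction for Mir140 thus depends on the scaling, whereas Mir455 was lower in replicate 1 under both. As a description, Mir455 lay within 2-fold with TMM and beyond it with total counts, where it would meet the rule for a call given below. Of the 360 genes tested, 34 (9.44%) had a ratio below that of Mir455 and 185 (51.4%) one below that of Mir140. The median of all 360 was -0.02, and the median of their absolute values was 0.29.

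A ratio taken within a library needs no scaling. Mir140 outnumbered Mir455 by 19.0 to 1 in replicate 1, with an exact 95% interval of 17.2 to 21.2, and by 10.2 to 1 in replicate 2, with an interval of 9.57 to 10.9. The intervals lay apart. The mean log2 ratio of Mir140 over Mir455 was 3.80 ± 0.63 (SD, n = 2), so Mir140 had far more reads in each library. Read numbers of different miRNAs are not numbers of molecules, because ligation depends on the sequence.

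Across the 360 genes, a gene was called when an exact binomial test (two-sided) gave a Benjamini-Hochberg adjusted p below 0.05 and the difference was at least 2-fold. By this rule 10.3% of genes were called, 3.89% as higher in replicate 1 and 6.39% as higher in replicate 2. With 1 library per dam this test compares these libraries and has no replicate check. It is the background for the lists below, which, like the members, were chosen with earlier results of these data in view. With TMM the calls were 14 higher in replicate 1 and 23 higher in replicate 2, and with total counts 8 higher in replicate 1 and 35 higher in replicate 2.

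Cartilage partners were 19 other miRNA genes reported in chondrocytes or in cartilage formation, most of them also active in other tissues. All 19 had a value, 15 were tested, 14 reached 10 counts in both libraries and 1 was at 0 in both. Their sum was 2747 CPM in replicate 1 and 4106 CPM in replicate 2. Mir138-1, Mir138-2 and Mir337 held most of that sum in each library. Of the 15 tested, 1 was called higher in replicate 1, 3 were called higher in replicate 2 and 11 were not called. Over all 360 genes, 3.89% were called higher in replicate 1 and 6.39% higher in replicate 2. The ratio of 12 partners was below 0, as was that of 185 of all 360 genes. The median of the partners was -0.41 on the log2 scale, against -0.02 for all 360 genes. The log2 ratio of Mir140, 0.00, was above the median of this list and that of Mir455, -0.89, below it.

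The partner with the most reads was Mir138-1, a gene known from dendritic spines and from bone-cell differentiation, at 853 CPM in replicate 1 and 1372 CPM in replicate 2. It was well below Mir140, which exceeded it 2.70-fold in replicate 1 and 1.94-fold in replicate 2. Its copy Mir138-2 had 430 CPM in replicate 1 and 511 CPM in replicate 2. Copies share sequence, so reads that fit both were lost to both. Mir337, from the imprinted Dlk1-Dio3 locus, had 712 CPM in replicate 1 and 726 CPM in replicate 2. From the same locus Mir495 had 93.6 CPM in replicate 1 and 142 CPM in replicate 2.

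Of the 3 partners higher in replicate 2, Mir27b had the most reads. Mir27b, which in human chondrocytes represses the collagenase gene MMP13, had 1130 counts in replicate 1 and 3153 in replicate 2. Its log2 ratio was -1.06, with an interval of -1.16 to -0.96 (exact binomial test, Benjamini-Hochberg adjusted p = 5.99e-108). Mir574 had 20 counts in replicate 1 and 135 in replicate 2, with a log2 ratio of -2.30 (interval -3.09 to -1.65, adjusted p = 5.12e-15 by the same exact test). Mir675, cut from the imprinted H19 RNA, had 8 counts in replicate 1 and 43 in replicate 2, with a log2 ratio of -1.93 (interval -3.30 to -0.90, exact test, adjusted p = 0.000133). Mir675 met the minimum of 10 counts only in replicate 2, where it was higher, and its low counts leave the size of the difference uncertain. With a coefficient of variation of 0.2 assumed between libraries, Mir27b and Mir675 were no longer called.

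Mir1247 went the other way. This gene, linked to SOX9 in human chondrocytes, had 69 counts in replicate 1 and 29 in replicate 2, and was called higher in replicate 1 at a log2 ratio of 1.66 (interval 1.03 to 2.35, exact binomial test, adjusted p = 1.56e-07). The called partners thus did not share a direction.

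The remaining partners that were tested were not called. Mir148a had a log2 ratio of -0.75, Mir146, known from inflammation, one of -0.60 and Mir193b, known from brown fat, one of -0.89. Mir193b was called with scaling by total counts, at -1.11. Mir29a, which represses collagen genes, had 60.8 CPM in replicate 1 and 72.2 CPM in replicate 2 and a ratio of -0.03. Mir34a, a p53 target, stood at -0.22 and Mir26a-2 at -0.41, and Mir26a-1 at 0.31. The copies Mir365-1, Mir365-2, Mir29b-1 and Mir29b-2 had at most 4 counts in a library and were not tested. Here too, reads that fitted both copies of a pair were counted for neither.

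**Figure D3:**
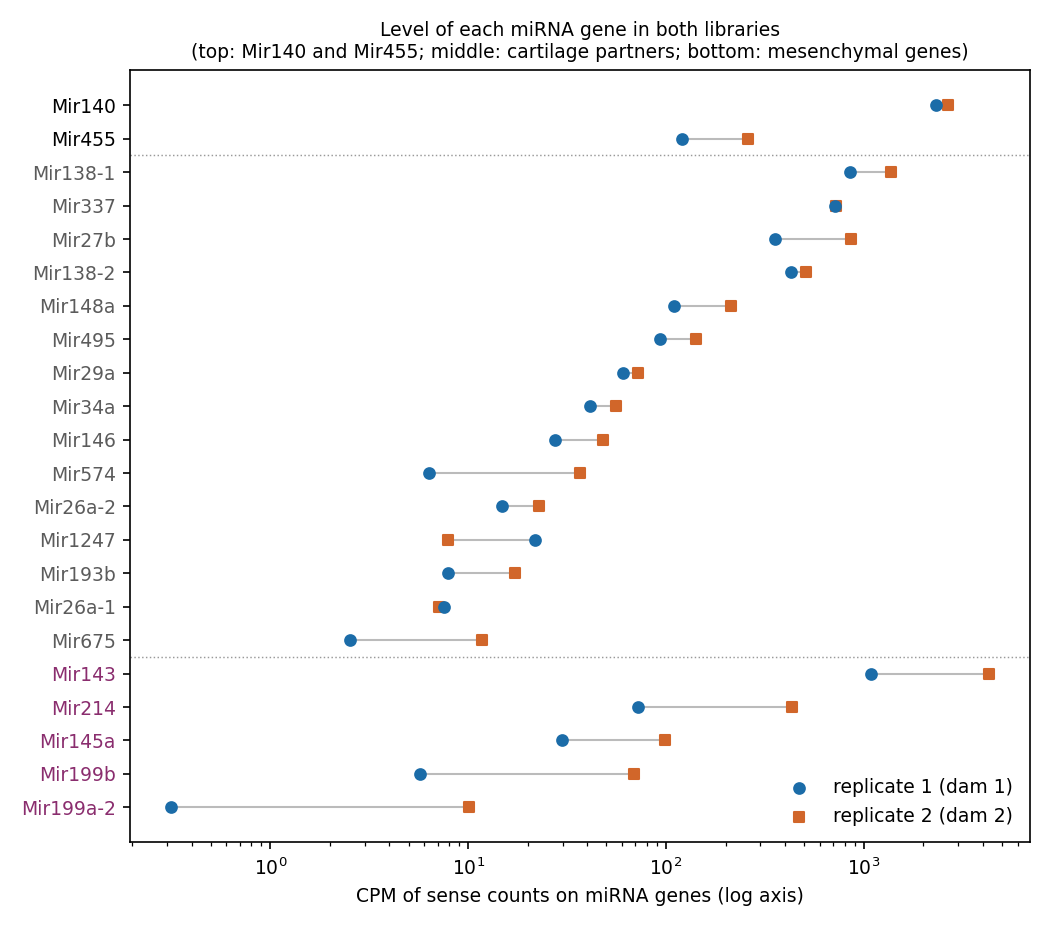
Level (CPM, log axis) of Mir140 and Mir455 (top), the 15 cartilage partners tested (middle) and the 5 mesenchymal genes tested (bottom) in replicate 1 (blue circles) and replicate 2 (orange squares). Mir140 is at 2305 CPM in replicate 1 and 2666 CPM in replicate 2, a narrow gap on this axis, while Mir455 and all 5 mesenchymal genes lie to the left in replicate 1.

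Markers of mesenchyme, the tissue that surrounds the neural tube and yields cartilage, moved in the same direction as Mir455. All 6 genes of the list had fewer counts in replicate 1, and 5 of the 5 tested were called higher in replicate 2, where 6.39% of all genes were. Mir199a-2 met the minimum of 10 counts only in replicate 2, where it was higher. The 4 genes that met it in both libraries were all called. The sum of all 6 was 1197 CPM in replicate 1 and 4894 CPM in replicate 2. The median log2 ratio of the 5 tested was -2.36, with a range of -4.22 to -1.51. Mir143, a gene of smooth muscle and fibroblasts, had 1089 CPM in replicate 1 and 4283 CPM in replicate 2. Its partner Mir145a had 29.6 CPM in replicate 1 and 98.3 CPM in replicate 2. Mir214, a gene of skeletal and other mesenchyme, had 72.5 CPM in replicate 1 and 433 CPM in replicate 2.

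The miR-199 genes were lowest. Mir199b had 5.67 CPM in replicate 1 and 69.2 CPM in replicate 2. Mir199a-2 had 1 count in replicate 1 and 37 in replicate 2, a log2 ratio of -4.22 with an interval of -10.1 to -2.22, and Mir199a-1 had 0 counts in replicate 1 and 2 in replicate 2. The miR-199 genes share sequence, so their counts rest on reads that fitted 1 position. Mir455 was nearer to 0 than all 5 tested genes of this list, and Mir140 nearer still. The part of mesenchyme in the Mir455 difference was not tested.

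**Figure D4:**
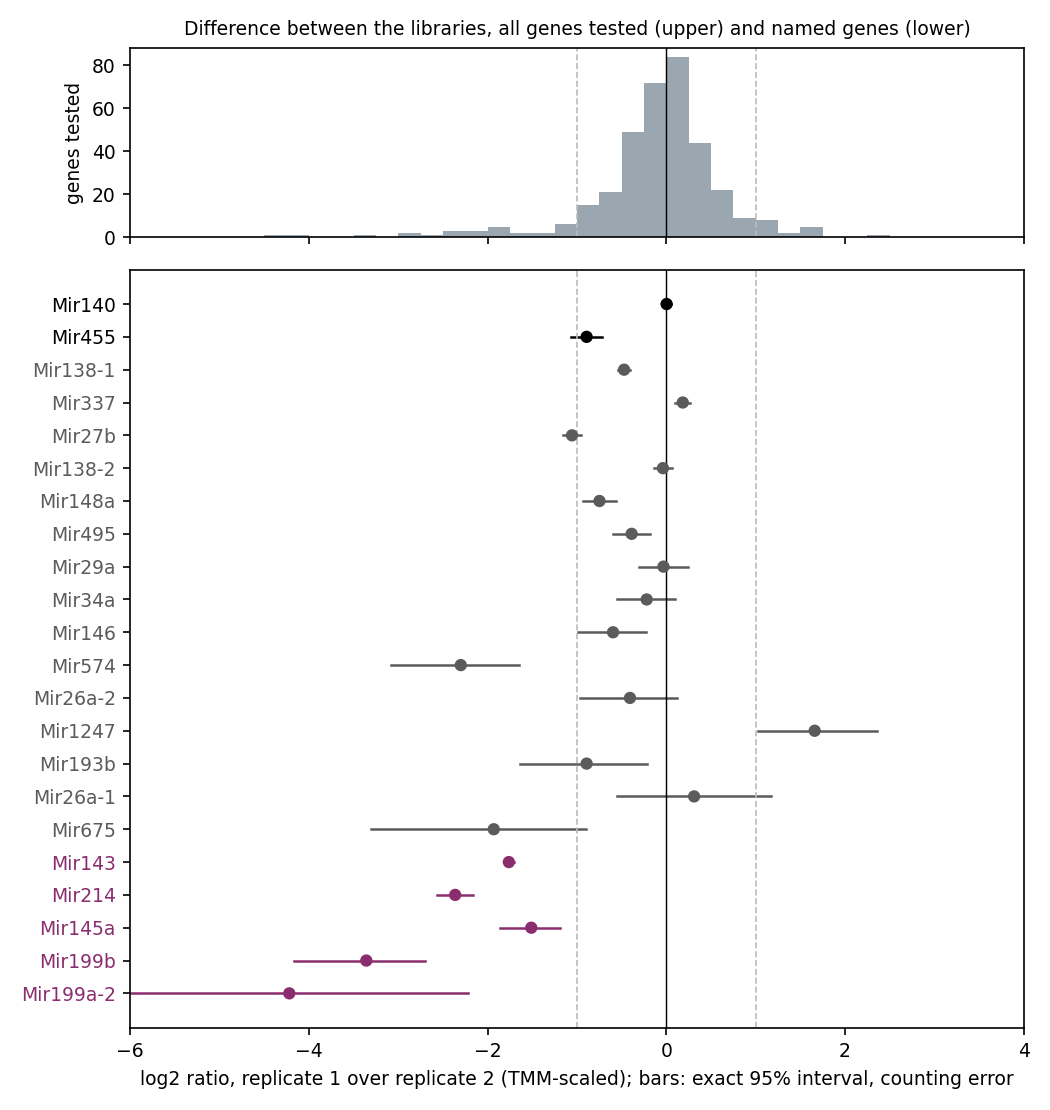
Log2 ratio of replicate 1 over replicate 2 after TMM scaling, as a histogram of all 360 genes tested (upper) and for single genes with exact 95% intervals of counting error (lower); black marks Mir140 and Mir455, grey the cartilage partners and purple the mesenchymal genes. Dashed lines mark 2-fold, and the interval of Mir199a-2 runs beyond the left edge; Mir140 sits at 0.00 and Mir455 at -0.89, between Mir140 and the mesenchymal genes.

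Set against single genes within each library, the 2 members parted. The comparison genes were the 2 mesenchymal genes, the 3 partners and the neural gene with the highest mean CPM. Mir140 was 2.12 times Mir143 in replicate 1, with an exact 95% interval of 2.03 to 2.21, but 0.622 times Mir143 in replicate 2, with an interval of 0.607 to 0.638. The order of Mir140 and Mir143 was thus opposite in the libraries. Mir140 over Mir214 was 31.8 in replicate 1 and 6.15 in replicate 2, and Mir140 over Mir27b was 6.47 in replicate 1 and 3.10 in replicate 2. Mir140 kept closer to Mir337, at 3.24 in replicate 1 and 3.67 in replicate 2, and to the neural gene Mir137, at 0.240 in replicate 1 and 0.286 in replicate 2.

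Among these comparison genes, Mir455 kept closest to Mir27b. Outside this set, the partner Mir193b had the same log2 ratio with TMM as Mir455, -0.89, from fewer counts. Mir455 over Mir27b was 0.340 in replicate 1, with an exact 95% interval of 0.302 to 0.382, and 0.304 in replicate 2, with an interval of 0.282 to 0.326. These intervals overlap. Mir455 over Mir137 was 0.0126 in replicate 1 and 0.0280 in replicate 2, and Mir455 over Mir337 was 0.170 in replicate 1 and 0.359 in replicate 2, more than the counting intervals apart. Against the mesenchymal genes the ratio ran the other way. Mir455 over Mir143 was 0.111 in replicate 1 and 0.0609 in replicate 2, and Mir455 over Mir214 was 1.67 in replicate 1 and 0.602 in replicate 2.

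**Figure D5:**
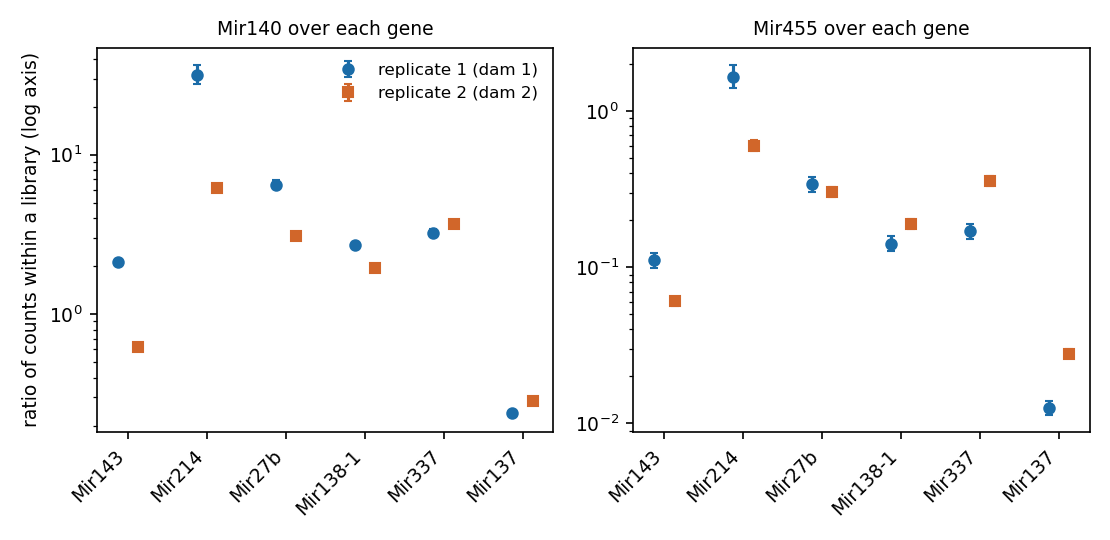
Ratio of counts within a library (log axis) of Mir140 (left) and Mir455 (right) over 6 other genes, in replicate 1 (blue circles) and replicate 2 (orange squares), with exact 95% intervals. Mir140 over Mir143 is 2.12 in replicate 1 and 0.622 in replicate 2, and Mir455 over Mir27b differs least, at 0.340 in replicate 1 and 0.304 in replicate 2.

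Lists for other tissues give the setting of these differences. The endothelial gene Mir126a was also lower in replicate 1, at 8443 CPM, than in replicate 2, at 17271 CPM, with a log2 ratio of -0.82 with TMM, close to the -0.89 of Mir455. Like Mir455, Mir126a was within 2-fold with TMM and not called, and beyond it with total counts, at -1.03, where it was called higher in replicate 2. Most genes of the neural list went the other way with TMM. Of the 11 tested, 2 had a ratio below 0, the median was 0.25, and 2 were called higher in replicate 1, where 3.89% of all genes were. The called genes were the copies of a neuronal miRNA, Mir128-1 at a log2 ratio of 1.18 and Mir128-2 at 1.13. With total counts 4 of the 11 were below 0, the median was 0.04 and none was called, and none was called with an assumed coefficient of variation of 0.2. Neural genes outside this list went both ways, so its direction depends on the genes chosen. With TMM the sensory gene Mir183 had a log2 ratio of -2.38. Mir138-1, counted among the partners, was at -0.47, whereas the neuronal gene Mir132 was at 0.74. The summed level of skeletal muscle genes was 45.4 CPM in replicate 1 and 53.1 CPM in replicate 2, and 2 of the 5 measured, Mir133a-1 and Mir133a-2, were at 0 in both libraries. The muscle gene with most reads, Mir206, had 44.1 CPM in replicate 1 and 51.5 CPM in replicate 2. The summed level of erythroid genes was 94.3 CPM in replicate 1 and 113 CPM in replicate 2, and that of epithelial genes was 407 CPM in replicate 1 and 508 CPM in replicate 2. In the erythroid list 1 of 3 tested genes, and in the epithelial list 1 of 5, was called higher in replicate 1, against the direction of the CPM sum. Mir203 held most of the epithelial sum, at 374 CPM in replicate 1 and 474 CPM in replicate 2. With TMM 2 of the 5 epithelial genes had a ratio below 0, and their median was 0.23. The erythroid gene Mir486 had 56 counts in replicate 1 and 23 in replicate 2, a log2 ratio of 1.69. The epithelial gene Mir200c had 34 counts in replicate 1 and 19 in replicate 2, a log2 ratio of 1.25, and was not called with the assumed coefficient of variation. These single calls stand beside the 3.89% of all genes called higher in replicate 1. The liver gene Mir122 had 43.5 CPM in replicate 1 and 35.9 CPM in replicate 2. Reads that fitted several copies, such as those of Mir133a, were counted for no gene, so the muscle sum may be too low. Among the reads that were counted, Mir140 alone had more than the muscle, erythroid, epithelial and liver lists together in each library.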

How the data were processed

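Small-RNA libraries of the neural tube of 2 mouse embryos were deposited as raw read counts per gene, and per the labels and the deposited notes the authors made these counts from mm10 alignments with annotation M4. The sources used here do not name the aligner or its settings. The tables held 1973 genes and 4 rows that name no gene, which took 46.6% of reads in replicate 1 and 48.1% in replicate 2 and stayed out of library sizes. Both arms of a hairpin are counted as 1 gene, so miR-140-3p and its opposite strand are not separated. Symbols came from GENCODE M21, by Ensembl identifier without version, for 1894 of 1973 genes. Mir9-1 and Mir1a-2 were not analysed here.

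Sense-strand counts were used. Both replicates form 1 group. The members and lists were chosen with earlier results of these data known. Genes with at least 10 counts in 1 library were compared by exact binomial tests (two-sided, scipy 1.17.1) against library sizes scaled by TMM (trimmed mean of M-values) in edgeR 4.0.16 (R 4.3.3), adjusted by Benjamini-Hochberg over all 360 genes, with a 2-fold minimum and a prior count of 0.5. With 1 library a dam, edgeR's quasi-likelihood test could not be fitted. Where nothing says otherwise, intervals are exact (Clopper-Pearson) at 95%, and the floor is 3 counts. Alternatives were total counts, DESeq2 1.42.0 size factors, other filters, priors, denominators and strands, and an assumed spread. Genes named by rule were both members, the mesenchymal list, partners with at least 10 counts in both libraries, the 4 most abundant genes of each other list, the 5 nearest by level and those with a shared seed. All other genes were named after their values or positions were seen, among them Mir675, Mir128-2 and genes named to account for a whole list. Python 3.11.15, numpy 2.4.6, pandas 2.3.3 and matplotlib 3.10.9 were used.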

Additional observations from a re-analysis of the deposited data

How the results depend on the processing

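Results that kept their value within 1 SD, their counting interval or 1.5-fold are not listed, apart from the means of Mir455 and values with 1 replicate left out. With 2 libraries, a value with 1 left out always lies within 1 SD of the mean. Mir140 had a mean of 1307 CPM when all reads in the tables formed the denominator and 3167 CPM without Mir10b in the denominator. The means of Mir455 under the same denominators were 99.96 CPM and 241 CPM, within 1 SD of its 191 CPM only because that SD is 98.7 CPM. With the 3 most abundant genes left out, which was added once values were known, the means were 5261 CPM for Mir140 and 398 CPM for Mir455. Leaving out 1 replicate gave 2305 to 2666 CPM for Mir140, 121 to 261 CPM for Mir455 and 3.35 to 4.25 for the mean log2 ratio of Mir140 over Mir455. Without replicate 2 the Mir455 level was over 1.5 times lower than the mean. Scaling by total counts gave log2 ratios of -0.21 for Mir140 and -1.11 for Mir455, which took Mir455 past 2-fold. The other 6 alternatives gave values within the counting interval of each. Against 37 of 360 genes called, 21 of 265 were called with a filter of 100 counts, which tests fewer genes. With an assumed coefficient of variation of 0.2, 21 of 360 were called. The cartilage partners called were 2 of 10 with that filter and 2 of 15 with that assumed variation, against 4 of 15. The cause of the other changes was not tested. No paired analysis was possible because there is 1 group. With 1 library per dam, depth limits the counting error but the spread between litters is unknown.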

Other observations

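Mir455 lies within a collagen gene, and few miRNA genes of the tables do. Of 44 collagen alpha-chain genes in the annotation, 2 held a miRNA gene of the tables on the same strand, a search added after the data were seen. The other was Mir711, within Col7a1, the gene of the anchoring-fibril collagen of skin, at chr9:108969922-108970003. It had 0 counts in replicate 1 and 0 in replicate 2, whereas Mir455 had 384 counts in replicate 1 and 957 in replicate 2. Of all 1973 genes, 1295 were at 0 in both libraries, so a value of 0 was common. By counting error, 0 counts leave room for a level of up to 0.946 CPM in replicate 1 or 0.817 CPM in replicate 2.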
